A study of Mus musculus with 12 samples.

Results

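The genes described here encode collagens, laminins and integrins together with fibronectin, the nidogens, perlecan, agrin and Sparc, that is, the matrix around a cell and the receptors that hold the cell to it. Members were chosen by gene name alone (every symbol of the forms Col-a, Lama, Lamb, Lamc, Itga and Itgb, plus Fn1, Nid1, Nid2, Hspg2, Agrn and Sparc), with a mean over the 12 libraries of at least 1 FPKM, a read density scaled to transcript length and to the size of the library. Of 55 names that matched, 47 passed this level, out of 13508 named genes in the table. They were 16 collagens, 7 laminins, 16 integrins, 6 other matrix genes and 2 genes, Itgb1bp1 and Itgb3bp, whose names match the integrin pattern although they encode intracellular proteins that bind integrin tails and not integrins. The integrin Itga10 stood only in a name joined with those of other genes and was not counted. Nearest above the limit were Itgb2 (1.05 FPKM) and Lama4 (1.06), and nearest below it were Col7a1 (0.951) and Itga11 (0.949).

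A basement membrane is a sheet of laminin and type IV collagen networks linked by nidogen and by the heparan sulfate proteoglycans perlecan (Hspg2) and agrin. Laminins are trimers of an α, a β and a γ chain, and integrins are dimers of an α and a β chain. The integrin of Itga5 and Itgb1 binds fibronectin, whereas those of Itga6 or Itga3 with Itgb1 bind laminin. In the early mouse embryo the epiblast, the tissue that embryonic stem cells resemble, rests on a basement membrane, and laminin containing the α5 chain is known to be made by pluripotent cells.

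The cells were mouse embryonic stem (ES) cells of strain 129SvEv, of genotype Wild type (WT; lines 18 and 26) or Arkadia -/- (lines 25 and 39, "null"). Arkadia, encoded by Rnf111, is a ubiquitin ligase that removes inhibitors of SMAD signalling. All lines had been grown in 2i medium with LIF, were then kept for 24 h in N2B27 on dishes coated with fibronectin, a ligand of several of the receptors described here, and were held for 4 h in 10 µM SB431542 (SB), which blocks the Activin and Nodal receptors. From each line 1 dish was taken at that point and the others received 10 ng/ml Activin A for 3 h or 6 h. There was no dish with fresh medium and no Activin, so Activin cannot be told apart from removal of SB, change of medium and time in culture. Each genotype is represented by 2 lines, each group by 1 dish of each, and p-values measure the spread between these lines. The labels do not say whether the lines are single clones, nor how the allele was made.

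Rnf111 lay at 3.19 to 4.27 FPKM in the WT libraries and at 0.539 to 0.855 in the null libraries. All 10 Activin/Nodal target genes listed as a check of the treatment rose at both times in both genotypes. Read totals were not given (the labels state only a guaranteed minimum), and the steps between low values put relative depth between 1.00 and 1.82, lowest in the null Activin libraries. The 10 ES cell and epiblast markers summed to 1027 to 1357 FPKM. Of 11 markers of extraembryonic endoderm, cells that make much laminin and type IV collagen, 6 had a row, summed to 4.83 to 11.8 and were each at most 4.92, with Sox17 at 0 in at least 1 library. Fibroblast markers (10 of 14 with a row) summed to 73.4 to 92.7 in WT and 99.3 to 154.5 in null libraries, mostly through Acta2 (54.2 to 130.2). Col1a1, Col1a2 and Col3a1 are both members and fibroblast markers. In bulk RNA, fewer cells of a type and less RNA per cell cannot be told apart.

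Many of the deposited loci do not cover the whole gene, which decides what a value describes. A locus holding less than 0.5 of a gene's annotated exonic bases (GENCODE M21 on GRCm38) is called partial below. This applied to 21 of the 47 members (9 collagens, 3 laminins and 9 integrins) against 19.5% of all tested genes that matched the annotation. A collagen locus among them holds 0 annotated exonic bases, so its values describe no exon of the gene, and it stays in the counts. The standard deviation between lines, pooled over the 6 groups on the log2(FPKM + 1) scale, had a median of 0.131 among the 26 other members and of 0.318 among the 21 partial ones. The partial ones also had the lower median of listed levels, 2.33 FPKM beside 4.63, and what sets the spread was not tested. Values of partial loci describe a short stretch, cannot be set against the level of other genes, and are given separately here.

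Among members at loci that were not partial, Sparc, a secreted collagen-binding glycoprotein, was the most abundant matrix gene, with 104 to 153 FPKM over the 12 libraries. Col18a1, a collagen of basement membranes, followed with 16.0 to 23.1 and was the only collagen above 5 FPKM on average. Nid2 lay at 8.25 to 11.4 and Fn1 at 6.91 to 12.6. The type IV collagen genes were lower, Col4a1 with a mean of 2.37 and Col4a2 with a mean of 1.25 FPKM. The Col18a1 locus overlaps the protein-coding gene Slc19a1, the Nid2 locus overlaps Rtraf, and the Col4a1 and Col4a2 loci each overlap the other gene. Whether the reads of these loci, here and below, come from the named genes was not tested. Of the laminins, Lamc1, Lamb1 and Lama5 had means of 5.23, 4.97 and 4.29 FPKM, close to each other, as did Itga3 with 5.36 and Itga5 with 3.71. Among integrin β chains Itgb1 stood at 38.5 to 60.4 FPKM, above Itgb5 (mean 3.14) in every library. The laminin-binding α chain Itga6 was the most abundant α chain other than Itgam, with 10.8 to 18.9 FPKM.

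Itgam, the α chain of a leukocyte integrin, was listed at 108, 291 and 76.0 FPKM in WT line 18 (SB, 3 h and 6 h), at 191, 283 and 342 in WT line 26, at 134, 271 and 285 in null line 25 and at 264, 532 and 334 in null line 39. Its mean was the highest of any member, although Sparc was higher in WT line 18 in SB and at 6 h and in null line 25 in SB, and the WT lines differed most at 6 h. Its β partner Itgb2 had a mean of 1.05 FPKM at a partial locus, and the myeloid gene Cd68 lay at 2.93 to 4.76 FPKM. The myeloid gene Spi1 (0 to 2.15 FPKM) was read only from the short stretch chr2:91115160-91115539. The values of Itgb2 and Spi1 therefore cannot be set against the level of Itgam. The Itgam locus overlaps the annotated gene Gm49368. Whether its reads come from Itgam was not tested, and it was called in no comparison. The partial locus of Itga4, the α chain of a receptor for fibronectin and VCAM1, spans 533 bases with no coding sequence. It stood at 13.4, 8.46 and 81.5 FPKM (SB, 3 h, 6 h) in WT line 18, 18.5, 29.9 and 14.7 in line 26, 22.6, 38.9 and 5.31 in null line 25 and 30.9, 15.9 and 19.3 in null line 39. The highest treatment was 6 h in WT line 18, 3 h in WT line 26 and null line 25 and SB in null line 39, and Itga4 was not called.

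**Figure D1:**
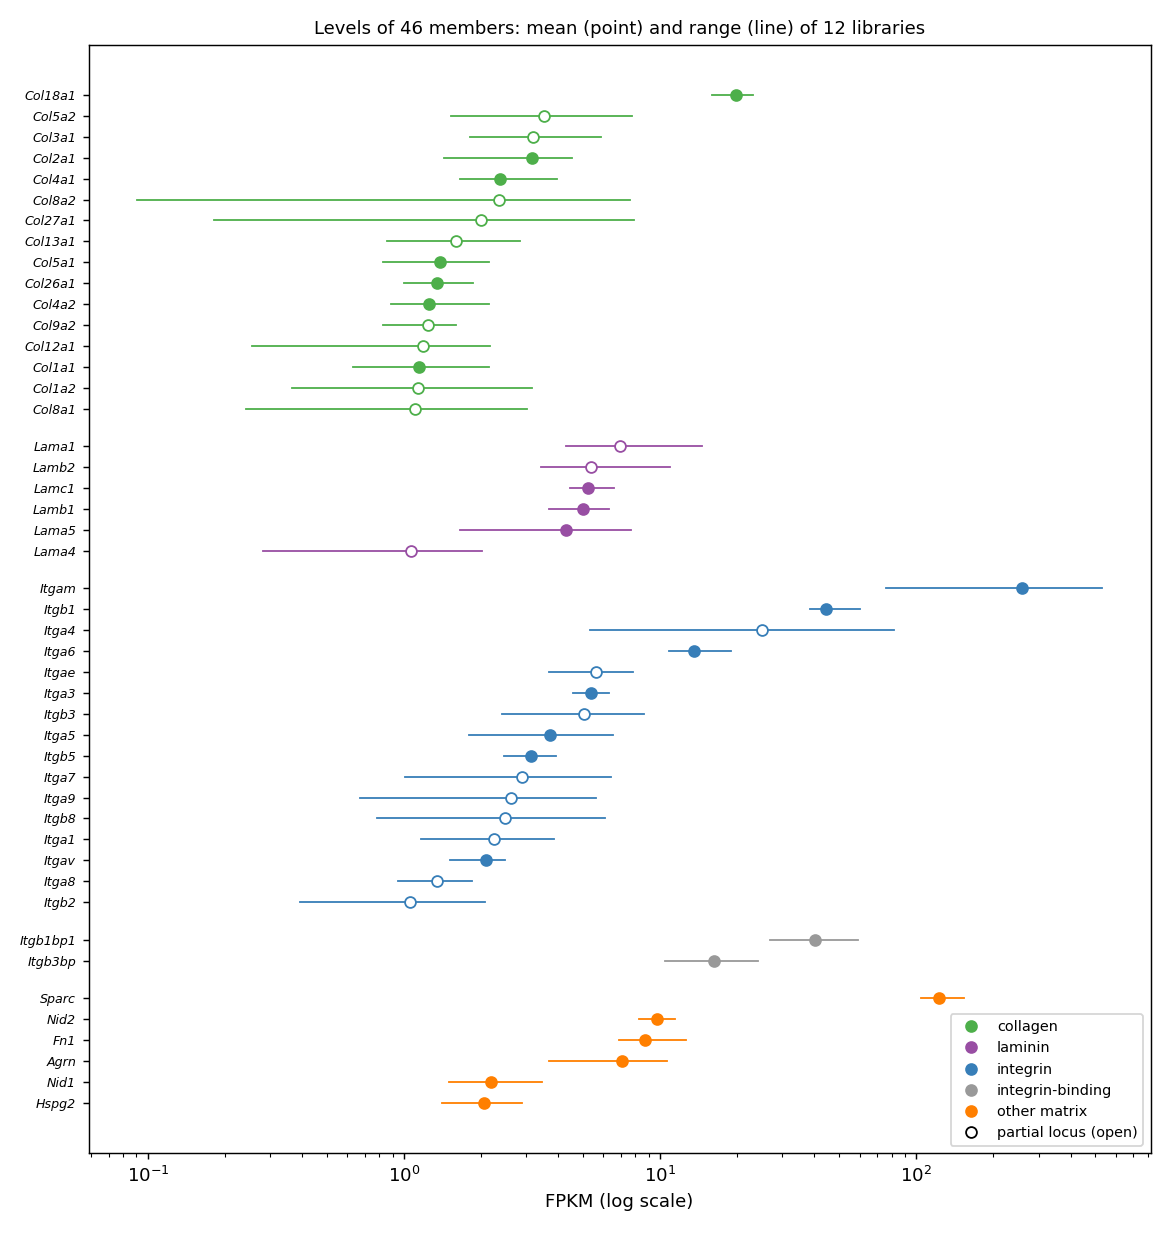
Mean FPKM (points, log axis) and range over the 12 libraries (lines) of 46 of the 47 members, grouped by family, with open points for partial loci. Itgam, Sparc, Itgb1 and Itgb1bp1 have means above 40 FPKM, and most collagens lie below 4.

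Differences were tested with limma on log2(FPKM + 1) over all 12823 genes with at least 1 FPKM in at least 2 libraries, with Benjamini-Hochberg adjustment over all of them, and a gene is called where the adjusted p is under 0.05. All 47 members were tested. After 3 h of Activin, 8 members rose and 1 fell in WT cells, and 7 rose and 1 fell in null cells. After 6 h, 6 rose and 1 fell in WT and 5 rose and 1 fell in null cells. The 6 include the partial Lama4, which became a member only through its WT 6 h libraries. Col5a1 and the partial Col8a2, Col12a1 and Col27a1, each among these calls, became members only with Activin libraries counted. Their calls are therefore not independent of how members were chosen. The members that rose in both genotypes at 3 h were Lama5, Lamb1, Agrn, Itga5, Col2a1 and the partial Col8a2, and the one that fell in each of these 4 comparisons was Itga6.

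These shares have to be read against all genes. In WT at 3 h, 19.1% of members were called, while 22.5% of all tested genes were (12.6% up and 9.83% down). At 6 h it was 14.9% of members and 15.9% of all genes (9.59% up, 6.31% down). In null cells the members' shares were 17.0% at 3 h, beside 13.6% of all genes (6.5% up, 7.14% down), and 12.8% at 6 h, beside 13.4% (7.87% up, 5.53% down). The total share called was therefore near that of all genes. With the cell line as a block, 16, 16, 15 and 16 members were called (WT 3 h, WT 6 h, null 3 h, null 6 h), beside 37.2%, 33.9%, 29.5% and 31.4% of all genes, and in each of the 4 comparisons 2 of those members fell.

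Restricted to loci that were not partial, 7 of 26 members were called at 3 h in each genotype (26.9%, beside 24.2% of such genes in WT and 14.8% in null) and 4 of 26 at 6 h (15.4%, beside 17.1% and 14.7%). The number of calls changed whichever line was left out, also in comparisons that hold no library of that line. The size of the change stays the same in such a comparison. For Lama5 in null cells at 3 h it was 1.41 with all lines and without WT line 18 or 26. The counts that follow therefore cannot tell whether a line carried a change. The share of all genes called in those runs is not given, so the counts do not describe the members in particular. Without WT line 18, 4 and 0 members were called in WT at 3 h and 6 h, and without WT line 26 it was 3 and 0. A lone line is assumed there to vary like the other groups. Without null line 25, 16 and 14 were called in WT, and without null line 39, 15 and 15. In null cells at 3 h, 3 members were called without either WT line and 4 without null line 25.

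The median change of the 47 members was 0.26 on the log2 scale in WT at 3 h and 0.23 in null cells, beside -0.01 for all genes in both. At 6 h the medians were 0.19 and 0.19, beside 0.02 and 0.01. Within single lines, 26 of the 47 members (20 of the 26 that were not partial) were above their SB dish at 3 h in all 4 lines, whereas 27.3% of all genes were. Only Itga6, Itga8 and Nid1 were below it in all 4, beside 29.4% of all genes. At 6 h, 22 members were above in all 4 lines (background 32.5%) and 4 were below (27.6%), namely Itga6, Itga8, Lama1 and Nid1. Within a genotype the 3 h and 6 h comparisons share their SB libraries. Of the members above SB in all 4 lines at 3 h, Col5a1, Col1a1 and the partial Col8a2, Col12a1, Col27a1 and Lama4 became members only with Activin libraries counted. All of these but Col1a1 were also above at 6 h. The shares and medians are therefore not independent of how members were chosen. No share over all genes at whole loci stands beside the 20 of 26.

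**Figure D2:**
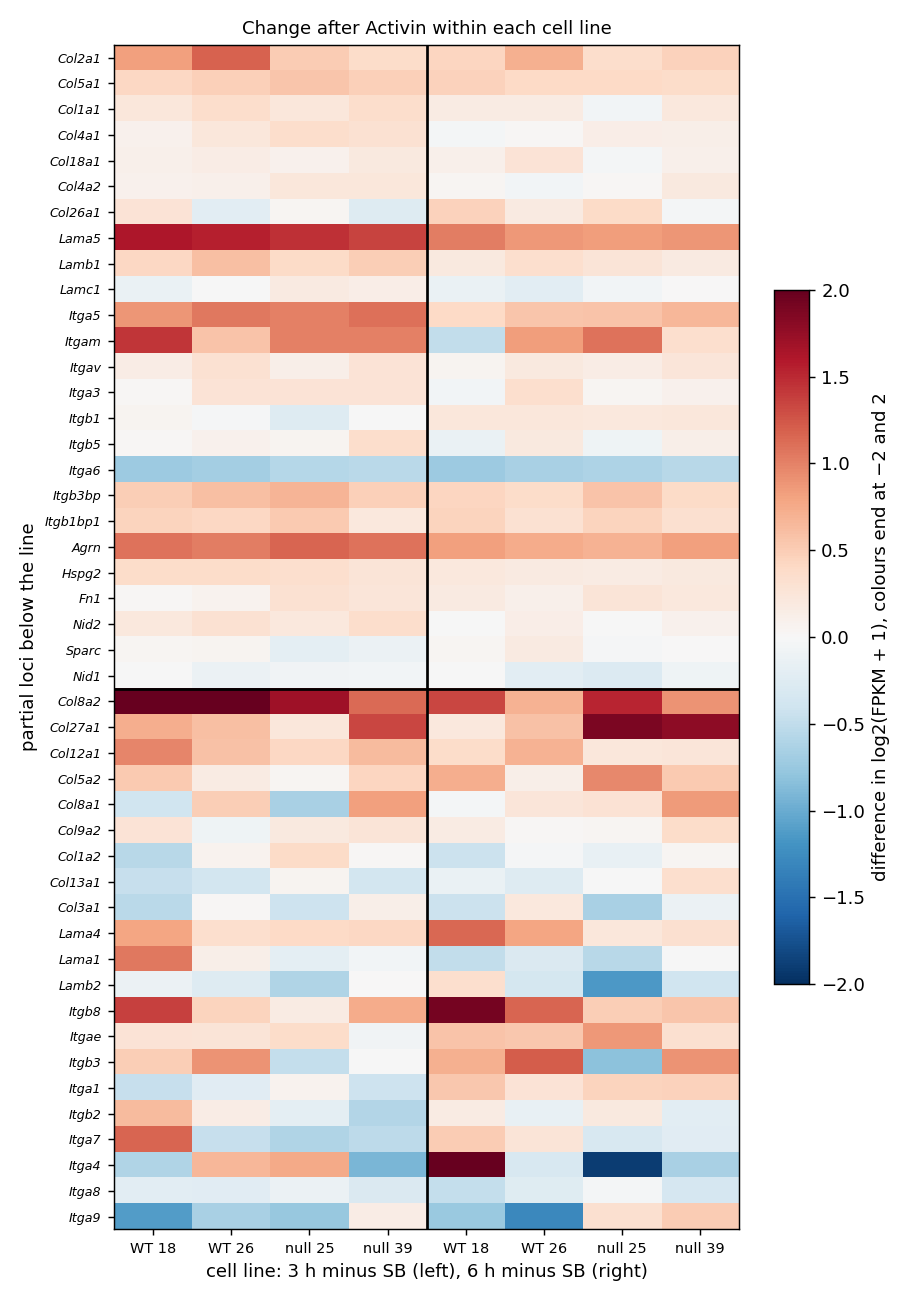
Change in log2(FPKM + 1) from SB to 3 h (left) and 6 h (right) within each of the 4 lines, 1 row for each of 46 members, with partial loci below the horizontal line and colours ending at -2 and 2. Rows for Lama5, Agrn and Itga5 are red in all 8 columns and that for Itga6 is blue in all 8, while rows of partial loci vary more between lines.

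Lama5 encodes the α5 chain of laminin and gave the largest rise among the members at whole loci. In SB it stood at 1.66 and 1.94 FPKM in WT lines 18 and 26, at 7.12 and 7.66 after 3 h and at 4.42 and 4.36 after 6 h. In null lines 25 and 39 it stood at 1.86 and 1.68 in SB, 6.88 and 5.86 after 3 h and 4.08 and 3.94 after 6 h. The groups of the 3 treatments did not overlap, with 3 h highest and SB lowest in every line. On the log2 scale the rise at 3 h was 1.59 ± 0.09 (SE) in WT (limma adjusted p = 1.8e-05) and 1.41 ± 0.09 in null cells (adjusted p = 5.7e-05). At 6 h it was 0.95 ± 0.09 (adjusted p = 0.00038) and 0.85 ± 0.09 (adjusted p = 0.00081). Between 3 h and 6 h Lama5 fell by 0.64 in WT (adjusted p = 0.013) and by 0.55 in null cells (adjusted p = 0.018). The 3 h calls held in every alternative run, whereas the WT call at 6 h had adjusted p of 0.096 and 0.064 without WT line 18 or 26, the WT call between 3 h and 6 h was lost without either WT line (0.46 and 0.56), and the null one without any 1 of the 4 lines (0.080 to 0.16).

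The promoters of the 3 members at whole loci with the largest called rise in either genotype, Lama5, Agrn and Itga5, are printed to show the sequence next to genes that moved together. They are the 250 bases before each gene's start (RefSeq, GRCm38.p6), 5′ to 3′ on the gene's strand, at chr2:180225860-180226109 (minus strand), chr4:156197489-156197738 (minus) and chr15:103366792-103367041 (minus). Capitals mark the SMAD core site CAGAC and the GC-rich SMAD site GGCGC on either strand.
Lama5: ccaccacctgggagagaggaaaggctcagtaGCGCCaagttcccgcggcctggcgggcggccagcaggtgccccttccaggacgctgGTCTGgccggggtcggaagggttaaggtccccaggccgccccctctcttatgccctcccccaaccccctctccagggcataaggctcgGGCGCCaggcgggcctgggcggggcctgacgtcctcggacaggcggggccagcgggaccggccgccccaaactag
Agrn: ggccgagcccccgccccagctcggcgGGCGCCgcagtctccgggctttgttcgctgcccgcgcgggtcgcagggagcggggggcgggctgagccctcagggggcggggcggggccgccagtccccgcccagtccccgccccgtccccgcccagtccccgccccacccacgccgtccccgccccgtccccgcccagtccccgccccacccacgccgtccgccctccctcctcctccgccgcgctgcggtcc
Itga5: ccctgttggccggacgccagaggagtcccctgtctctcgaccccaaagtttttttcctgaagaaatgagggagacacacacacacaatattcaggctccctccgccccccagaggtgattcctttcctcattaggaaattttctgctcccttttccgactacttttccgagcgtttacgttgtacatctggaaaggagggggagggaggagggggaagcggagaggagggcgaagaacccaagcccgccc
Lama5 held 1 CAGAC and 3 GGCGC matches, and Agrn held 2 GGCGC matches, which overlap as GGCGCC read on both strands. Itga5 held neither. GC content was 72.4%, 83.6% and 55.6%, beside a median of 52.0% over 27025 promoters. CAGAC was in 42.1% of all promoters of this length and in 17 of the 31 members with an entry, and GGCGC in 32.1% and 18 of 31. The palindrome GTCTAGAC (0.174% of promoters) was in none of the 31, and the FOXH1 site TGTNNATT (11.1%) was in 5. A match of letters is a description only.

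Lamb1 and Lamc1 encode the β1 and γ1 chains that join α5 in a trimer. Lamb1 stood at 4.00 and 3.67 FPKM in the WT lines in SB, 5.64 and 6.11 at 3 h and 4.75 and 4.91 at 6 h. Null lines stood at 4.63 and 3.77, then 6.32 and 5.71, then 5.76 and 4.42. The 3 h values lay above all SB values, and those at 6 h overlapped SB in null cells. The rise at 3 h was 0.51 ± 0.12 in WT (limma adjusted p = 0.022) and 0.43 ± 0.12 in null cells (adjusted p = 0.049), and it was lost without either WT line (adjusted p from 0.18 to 0.37). The null call was also lost without either null line (0.069 and 0.065) and with no filter on low values. The WT difference of 0.27 at 6 h was not called with all lines in the fit of group means. It was called with the cell line as a block (adjusted p = 0.038) and without null line 25 or 39 (0.045 and 0.044). Lamc1 stood at 5.37, 4.84 and 4.81 FPKM (SB, 3 h, 6 h) in WT line 18, 5.27, 5.23 and 4.44 in line 26, 5.74, 6.60 and 5.52 in null line 25 and 4.78, 5.33 and 4.82 in null line 39. In WT every SB value lay above every 3 h value and these above every 6 h value, while the null treatments overlapped. Lamc1 was called in no comparison.

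The ratio of α5 to γ1, in FPKM and therefore per length, moved with Lama5. Lama5 over Lamc1 was 0.338 ± 0.042 (SD, n = 2) in WT cells kept in SB, 1.47 ± 0.0043 after 3 h and 0.950 ± 0.044 after 6 h of Activin, and 0.338 ± 0.020, 1.07 ± 0.039 and 0.779 ± 0.056 in null cells. Lama5 over Lamb1 went from 0.471 ± 0.081 to 1.26 ± 0.0064 at 3 h in WT and from 0.424 ± 0.031 to 1.06 ± 0.044 in null cells. In SB the mRNA for α5 was thus the scarcest of the 3 chains in all 4 lines, and at 3 h it exceeded both partners in every library. These ratios were formed after the values were seen and carry no test.

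Lama4, Lama1 and Lamb2 were read at partial loci. Lama4, the α4 chain of vascular and mesenchymal basement membranes, was read from 395 exonic bases at 0.280 and 0.746 FPKM in the WT lines in SB, 1.21 and 1.21 at 3 h and 1.84 and 2.02 at 6 h. In null lines it was 0.481 and 0.754, then 0.958 and 1.35, then 0.740 and 1.19. WT values at 6 h lay above all others, and the rise there was 0.97 ± 0.18 (limma adjusted p = 0.011), lost without WT line 18 or 26. Lama4, with a mean of 1.06 FPKM, passed the limit for membership only with these WT 6 h libraries counted. Its call is therefore not independent of how members were chosen. With the block Lama4 was also called in WT at 3 h (0.56, adjusted p = 0.016). Lama1, the α1 chain typical of the first embryonic basement membranes, was read at a locus with 0.037 of its exons. It stood at 6.55, 14.6 and 4.40 FPKM (SB, 3 h, 6 h) in WT line 18, 8.87, 9.76 and 7.06 in line 26, 6.75, 5.80 and 4.28 in null line 25 and 5.18, 4.98 and 5.12 in null line 39. Both WT libraries at 3 h lay above all others. Lamb2, the β2 chain, stood at 5.01, 4.57 and 6.60 in WT line 18, 5.13, 4.10 and 3.78 in line 26, 10.9, 6.89 and 4.41 in null line 25 and 4.82, 4.83 and 3.42 in null line 39. Neither was called in the fit of group means, and Lamb2 fell by 0.77 in null cells at 6 h with the block (adjusted p = 0.038).

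Among integrins, Itga5 and Itga6 moved in opposite directions. Itga5, the α chain of the fibronectin receptor, stood at 2.16 and 1.80 FPKM in the WT lines in SB, 4.84 and 4.83 at 3 h and 3.15 and 3.11 at 6 h. In the null lines it stood at 2.74 and 1.92, then 6.51 and 5.25, then 4.56 and 3.63. All values at 3 h lay above all SB values, and null line 25 was the highest of the 4 lines at each treatment. The rise at 3 h was 0.97 ± 0.15 in WT (limma adjusted p = 0.0036) and 1.05 ± 0.15 in null cells (adjusted p = 0.0039), and in null cells at 6 h it was 0.62 ± 0.15 (adjusted p = 0.029). The WT difference at 6 h, 0.47 ± 0.15, had an adjusted p of 0.059 and was called with the block (adjusted p = 0.0052). The 3 h calls were lost without WT line 18 (adjusted p = 0.16 in WT and 0.055 in null cells) or 26 (0.21 and 0.055), as was the null call at 6 h (0.14 for each).

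Itga6, the α chain of the laminin receptor, stood at 18.9 and 17.9 FPKM in the WT lines in SB, 10.99 and 10.78 at 3 h and 11.02 and 11.03 at 6 h. In the null lines it stood at 18.6 and 16.6, then 12.2 and 11.1, then 11.72 and 11.01. No Activin library reached the lowest SB library, and 3 h and 6 h were close to each other. Itga6 fell by 0.71 in WT at 3 h (SE 0.07, limma adjusted p = 0.00045) and by 0.69 at 6 h (adjusted p = 0.00054). In null cells it fell by 0.55 (adjusted p = 0.0029) and by 0.59 (adjusted p = 0.0017). Of these 4 calls the null one at 6 h held in every alternative, and the others were lost without WT line 18 or 26, with adjusted p of 0.058 to 0.13. Its locus holds 0.973 of the annotated exons and lacks the 5′ end.

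The Itga6 to Itga5 ratio in FPKM was 9.37 ± 0.872 (SD, n = 2) in WT in SB, 2.25 ± 0.031 at 3 h and 3.52 ± 0.037 at 6 h. In null cells it was 7.72 ± 1.34, 2.00 ± 0.175 and 2.80 ± 0.328. The ratio was thus lowest at 3 h in each line, and it is a description of 2 genes picked after their values were seen. Itgb1, the β chain shared by both receptors, was at 39.6, 41.1 and 46.6 FPKM (SB, 3 h, 6 h) in WT line 18 and 39.0, 38.5 and 45.6 in line 26. It was at 51.8, 43.1 and 60.4 in null line 25 and 39.3, 38.9 and 46.4 in line 39. Each line was highest at 6 h, by 0.22 to 0.23 over SB on the log2 scale. That difference was not called in the fit of group means (limma adjusted p = 0.29 in WT and 0.31 in null cells), and was called with the block (adjusted p = 0.037 and 0.040).

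Itga3, a further laminin-binding α chain, lay between 4.55 and 6.28 FPKM, and Itgav and Itgb5, which form a vitronectin receptor, at 1.51 to 2.48 and 2.46 to 3.91. None of these was called. Itgb8, the β chain whose dimer with αv activates latent TGFβ, was read only from 379 bases with no coding sequence. It stood at 0.890 and 0.783 FPKM in the WT lines in SB, 3.86 and 1.42 at 3 h and 6.09 and 3.00 at 6 h, and at 2.02 and 1.17, 2.40 and 2.63, and 3.26 and 2.18 in the null lines. WT lines were below null lines in SB and overlapped them at 6 h. The rise in WT at 6 h was 1.54 ± 0.36 (limma adjusted p = 0.024), and without WT line 18 or 26 the adjusted p was 0.22 and 0.067. The 7 other partial integrin loci apart from Itgb2 were called in no comparison in the fit of group means, among them Itga1 (1.16 to 3.85 FPKM), Itga7 (1.00 to 6.41) and Itga9 (0.669 to 5.62). With the block, Itgae rose at 6 h by 0.56 in WT and 0.59 in null cells (adjusted p = 0.016 and 0.015). Itga9 then fell in WT by 0.88 at 3 h and by 1.01 at 6 h (adjusted p = 0.0499 and 0.035). Itgb8 then rose in WT by 0.90 at 3 h and by 1.54 at 6 h (adjusted p = 0.026 and 0.0047). The Itgae locus overlaps the protein-coding gene Haspin, and whether its reads come from Itgae was not tested.

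Itgb1bp1 and Itgb3bp stood at 26.9 to 59.0 and 10.4 to 24.1 FPKM and were above SB in all 4 lines at both times. The Itgb1bp1 locus overlaps the protein-coding genes Asap2 and Cpsf3, and the Itgb3bp locus overlaps Efcab7. Whether the reads of these 2 loci come from the named genes was not tested. The changes of Itgb1bp1 and Itgb3bp were 0.43 and 0.54 in WT at 3 h, with limma adjusted p of 0.12 and 0.071. With the block both were called in all 4 comparisons with SB.

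Agrn encodes agrin, a proteoglycan that links laminin to the cell surface. It stood at 3.68 and 4.29 FPKM in the WT lines in SB, 8.90 and 9.74 at 3 h and 7.29 and 7.86 at 6 h. In the null lines it stood at 4.16 and 3.86, then 10.6 and 9.33, then 7.36 and 7.62. The groups of the 3 treatments did not overlap, and both genotypes ran in the same range. The rise was 1.05 ± 0.09 in WT at 3 h (limma adjusted p = 0.00018) and 1.13 ± 0.09 in null cells (adjusted p = 0.00019). At 6 h it was 0.78 (adjusted p = 0.00099) and 0.76 (adjusted p = 0.0014). All but the WT call at 6 h, with adjusted p of 0.11 and 0.077 without WT line 18 or 26, held in every alternative.

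The remaining matrix genes moved less. Hspg2, perlecan, stood at 1.41 and 1.51 FPKM in the WT lines in SB, 2.12 and 2.24 at 3 h and 1.80 and 1.84 at 6 h, and its rise of 0.37 ± 0.11 at 3 h (limma adjusted p = 0.038) was lost without WT line 18 (0.45) or 26 (0.37). In null cells the 3 h difference of 0.30 was called only with the block (adjusted p = 0.031). Nid2, a nidogen, stood at 9.30, 10.97 and 9.30 FPKM (SB, 3 h, 6 h) in WT line 18, 8.33, 10.6 and 9.24 in line 26, 9.71, 11.4 and 9.70 in null line 25 and 8.25, 10.8 and 8.76 in null line 39. Every line was highest at 3 h. Nid2 differed from SB by 0.26 in WT and 0.29 in null cells at 3 h, not called in the fit of group means. It was called with the block (adjusted p = 0.015 in both) and with quantile normalization (0.025 and 0.029), and in WT without null line 25 or 39 (0.034 and 0.033). Nid1, its paralogue, was below SB in all 4 lines and not called.

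Fn1, fibronectin, differed from SB by 0.05 in WT and 0.27 in null cells at 3 h and by 0.14 and 0.24 at 6 h. It was called only in null cells, with the block (adjusted p = 0.012 and 0.017). Its values were 6.91, 7.07 and 7.97 FPKM in WT line 18, 7.04, 7.42 and 7.66 in line 26, 10.1, 12.6 and 12.2 in null line 25 and 7.65, 9.23 and 9.06 in null line 39. Null line 25 was the highest line in each treatment, and the WT lines were close to each other. Sparc lay at 112, 116 and 115 in WT line 18, 104, 109 and 117 in line 26, 153, 133 and 150 in null line 25 and 122, 112 and 122 in null line 39. With the block it fell by 0.16 in null cells at 3 h (adjusted p = 0.039), and it was not called in the fit of group means.

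**Figure D3:**
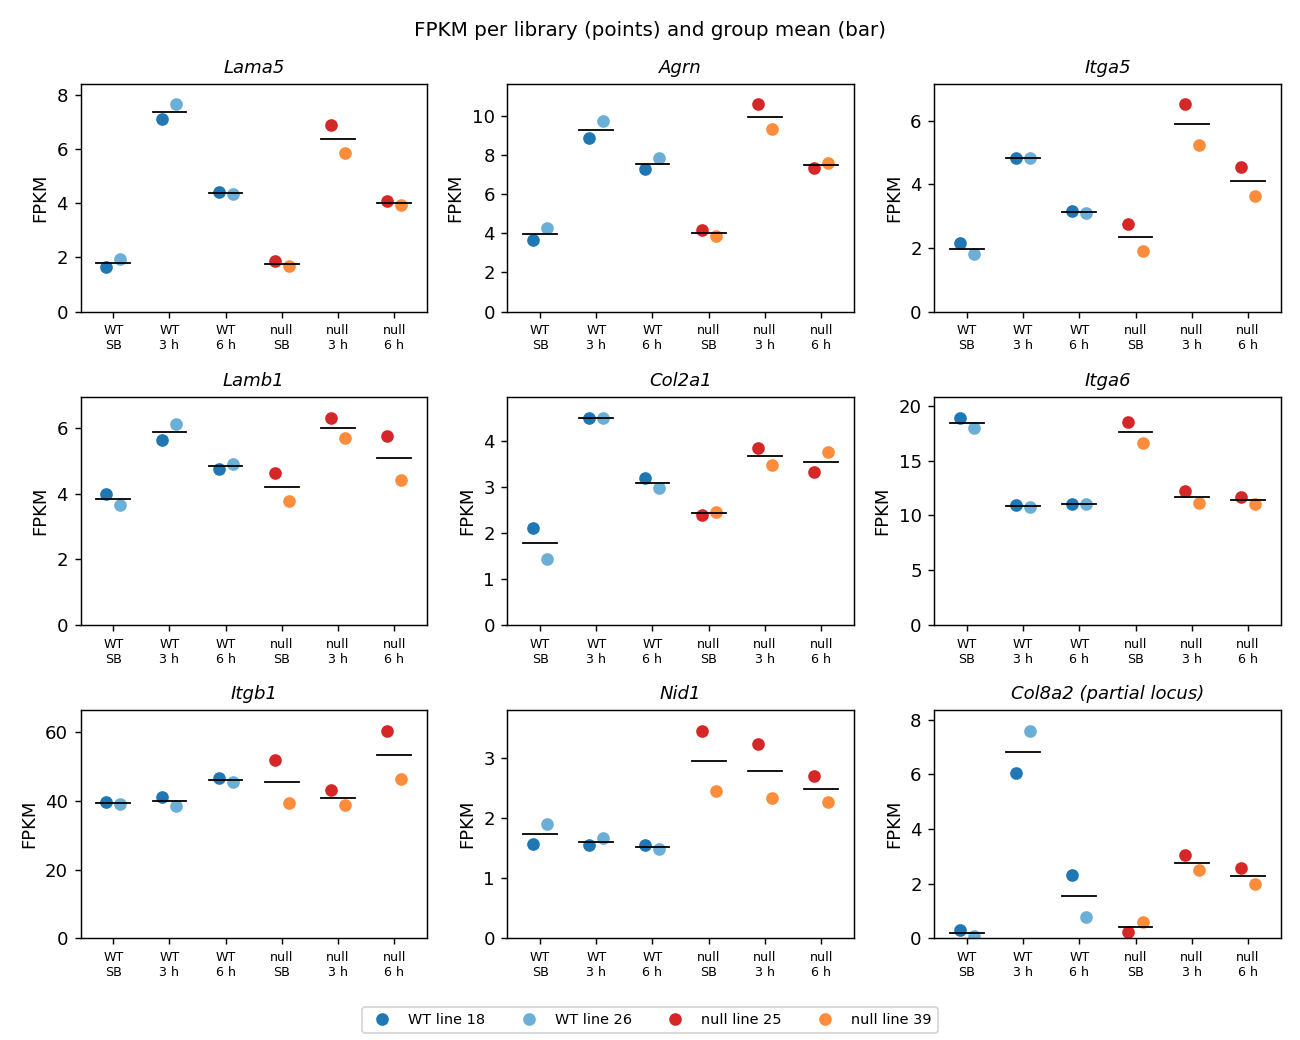
FPKM of 9 members in each of the 12 libraries (points coloured by cell line) with the group mean (bar), by genotype and treatment, each on its own linear axis from 0. Lama5, Agrn and Itga5 are highest at 3 h, Itga6 is highest in SB, and Nid1 separates the null from the WT lines in every treatment.

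Among collagens at whole loci Col2a1, the fibrillar collagen of cartilage and notochord, changed most. It stood at 2.11 and 1.43 FPKM in the WT lines in SB, 4.49 and 4.50 at 3 h and 3.19 and 2.97 at 6 h. In the null lines it stood at 2.39 and 2.46, then 3.85 and 3.47, then 3.32 and 3.76. The 3 h values of WT lay above all null values. The rise was 1.00 ± 0.12 in WT at 3 h (limma adjusted p = 0.0011), 0.57 at 6 h (adjusted p = 0.017) and 0.44 in null cells at 3 h (adjusted p = 0.043). With WT line 26 left out, adjusted p was 0.097, 0.29 and 0.11, without WT line 18 the WT call at 6 h was lost too (0.15), and the null call was lost without any 1 of the 4 lines and with a pseudocount of 0.1. In null cells at 6 h the difference of 0.40 had an adjusted p of 0.057, and 0.034 with the block. A second Col2a1 locus of lower level was not used.

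Col5a1, a chain of the collagen that nucleates fibrils, stood at 0.831 and 0.880 FPKM in the WT lines in SB, 1.44 and 1.62 at 3 h and 1.53 and 1.48 at 6 h. Null lines stood at 1.14 and 0.827, then 2.15 and 1.55, then 1.81 and 1.37. Every Activin library lay above every SB library. The rise was called in null cells at 3 h (0.52 ± 0.14, limma adjusted p = 0.042), and with the block it was called in all 4 comparisons with SB. The null call was lost without WT line 18 or 26 (adjusted p = 0.17 for each) or null line 25 (0.11). Col18a1 stood at 20.1, 21.7 and 21.8 FPKM (SB, 3 h, 6 h) in WT line 18, 18.9, 21.2 and 23.1 in line 26, 19.6, 20.8 and 19.1 in null line 25 and 16.0, 18.3 and 17.3 in null line 39. Null line 39 was the lowest line in each treatment. Against SB, Col18a1 was called in WT at 6 h, by 0.19, with the block (adjusted p = 0.044) and without null line 39 (0.049). Col4a1 was called only in null cells at 3 h with the block, by 0.32 (adjusted p = 0.023). Col1a1, Col4a2 and Col26a1 were called in no comparison with SB.

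The largest change of any member was at a partial locus of 388 coding bases of Col8a2, a short-chain collagen. It was listed at 0.309 and 0.0904 FPKM in the WT lines in SB, 6.06 and 7.58 at 3 h and 2.31 and 0.767 at 6 h. In the null lines it was at 0.239 and 0.587, then 3.03 and 2.49, then 2.57 and 1.97. Every Activin library lay above every SB library, and WT at 3 h above all others. The change was 2.70 ± 0.28 in WT at 3 h (limma adjusted p = 0.00043) and 1.42 ± 0.28 in null cells (adjusted p = 0.014). At 6 h it was 1.02 (adjusted p = 0.039) and 1.22 (adjusted p = 0.024). Between 3 h and 6 h it fell by 1.69 in WT (adjusted p = 0.021). The WT call at 3 h held in every alternative, the null calls were lost without null line 25 (adjusted p = 0.19 and 0.24) or 39 (0.056 and 0.077), and the WT calls at 6 h and from 3 h to 6 h were lost without any 1 of the 4 lines (adjusted p of 0.054 to 0.45).

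Other partial collagen loci were Col12a1, a fibril-associated collagen, with a rise of 0.79 ± 0.18 in WT at 3 h (limma adjusted p = 0.019), and Col27a1, a fibrillar collagen, with a rise of 1.84 ± 0.40 in null cells at 6 h (adjusted p = 0.020). Col12a1 stood at 0.434, 1.83 and 0.853 FPKM (SB, 3 h, 6 h) in WT line 18, 0.254, 0.885 and 1.03 in line 26, 1.08, 1.79 and 1.43 in null line 25 and 1.04, 2.16 and 1.41 in null line 39. Col27a1 stood at 0.636, 1.71 and 0.888 in WT line 18, 0.814, 1.75 and 1.71 in line 26, 1.40, 1.82 and 7.88 in null line 25 and 0.181, 1.97 and 3.09 in null line 39. Null line 25 at 6 h was the highest library for Col27a1, and SB was the lowest treatment of both genes in every line. Both calls were lost without WT line 18 (0.28 and 0.11) or 26 (0.090 and 0.11). Col5a2 and Col3a1 are chains of fibrillar collagens. Col5a2 stood at 2.90, 4.62 and 5.43 FPKM in WT line 18, 2.38, 2.78 and 2.65 in line 26, 3.53, 3.67 and 7.79 in null line 25 and 1.52, 2.41 and 2.63 in null line 39. Col3a1 stood at 3.57, 2.15 and 2.41 in WT line 18, 1.80, 1.86 and 2.24 in line 26, 5.85, 4.16 and 3.35 in null line 25 and 3.62, 4.03 and 3.24 in null line 39. Null libraries were above WT libraries for Col3a1 apart from WT line 18 in SB. Both had no call in the fit of group means, and Col5a2 was called in null cells at 6 h with the block (0.74, adjusted p = 0.039).

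From 3 h to 6 h of Activin, 2 members were called in WT (beside 2.53% of all genes) and 1 in null cells (beside 4.63%), all falls, of Lama5 in both genotypes and of Col8a2 in WT. With the block 4 members were called in WT (6.64% of all genes) and 5 in null cells (13.4%). Itga5 then fell by 0.50 in WT (adjusted p = 0.020) and by 0.43 in null cells (adjusted p = 0.018), while Itgb1 rose by 0.36 in null cells (adjusted p = 0.019). The partial Itga1 rose by 0.75 in WT with the block (adjusted p = 0.048).

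Whether the response to Activin depended on Arkadia was tested as the difference between genotypes in the change from SB. No member was called at 3 h or at 6 h, beside 0.0% of all genes at each time. At an unadjusted p under 0.05 there were 3 members and 654 genes at 3 h and 2 members and 382 genes at 6 h. With the block no member was called either. For Lama5 the null response was smaller by 0.18 at 3 h (SE 0.13, limma adjusted p = 0.93) and for Agrn it was larger by 0.08 (SE 0.13, adjusted p = 0.94). For Itga5 the difference was 0.08 ± 0.21 and for Itga6 0.16 ± 0.10 (adjusted p = 0.96 and 0.93). The largest differences at unadjusted p under 0.05 at 3 h were for partial loci and Col2a1, namely Col8a2 (-1.29 ± 0.39), Itgb2 (-0.78 ± 0.21) and Col2a1 (-0.56 ± 0.17), with adjusted p of 0.76, 0.73 and 0.76. These p-values do not show that the responses are alike.

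Between the genotypes, null minus WT, no member was called in SB, beside 0.312% of all genes, and none at 6 h, beside 0.211%. At 3 h 1 member was called, beside 0.382%. At an unadjusted p under 0.05 there were 7 members in SB, 8 at 3 h and 6 at 6 h, beside 1910, 1655 and 1881 of the 12823 genes tested. The member called at 3 h was Itgb2, the leukocyte integrin β chain, at a partial locus with 2.07 and 1.499 FPKM in the WT lines and 0.533 and 0.391 in the null lines. Its mean of 1.05 FPKM passed the limit for membership only with these WT libraries, its highest, counted. The call is therefore not independent of how members were chosen. In SB the WT lines had 0.971 and 1.26 and the null lines 0.750 and 1.09. After 6 h the WT lines had 1.20 and 1.03 and the null lines 1.000 and 0.805. The genotypes overlapped in SB and did not overlap at 3 h or 6 h. The difference of -0.92 ± 0.15 (limma adjusted p = 0.049) was lost with the block, with a pseudocount of 0.1 and without any 1 line (adjusted p of 0.065 to 0.78).

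On the means of the lines over SB, 3 h and 6 h, the only comparison with the cell line as its unit, no member and no gene was called (0.0%), with 10 members and 1710 genes at an unadjusted p under 0.05. Both null lines lay above both WT lines for 16 of 47 members, beside 23.6% of all genes, and below both for 5, beside 28.6%. The 16 included Nid1, Fn1, Sparc, Hspg2, Itga5, Itgb5, Col1a1, Col4a2 and both integrin-binding genes. The 5 were Col18a1, Col26a1, Lama5 and the partial Itgb2 and Lama1. The median of the members was 0.14 on the log2 scale, beside -0.01 for all genes. Of the 16, some passed the limit for membership only with null libraries counted, among them Col1a1, Col4a2 and the partial Col1a2 and Col12a1. Of the 5, Itgb2 passed it only with WT libraries counted. These counts and the median are therefore not independent of how members were chosen.

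Nid1, nidogen, named here after its values were seen, gave the clearest separation at a whole locus. It stood at 1.57, 1.54 and 1.55 FPKM in WT line 18 (SB, 3 h, 6 h) and 1.89, 1.67 and 1.49 in line 26. In null line 25 it stood at 3.45, 3.22 and 2.70 and in null line 39 at 2.44, 2.33 and 2.26. All 6 null libraries lay above all 6 WT libraries. The difference of the line means was 0.50 ± 0.12, with a limma adjusted p of 0.27. Nid2 did not separate the lines, and the Nid2 to Nid1 ratio was 4.40 to 7.11 in the WT libraries and 2.82 to 4.66 in the null libraries.

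Null line 25 carried much of the difference in fibronectin and in some of the collagens. For Col18a1, Col26a1 and the partial Col12a1, line 39 was further from WT. Fn1 was higher in null cells by 0.40 on line means (limma adjusted p = 0.35), Col4a2 by 0.35 (adjusted p = 0.37) and Sparc by 0.22 (adjusted p = 0.42), and for each of them line 25 was further from WT than line 39. The reverse held for Itgb1bp1 (0.45) and Itgb3bp (0.37), where line 39 was further. Without null line 25, Itgb1bp1 was called in SB (0.74, adjusted p = 0.0050), at 3 h and at 6 h, Itgb3bp in SB and at 6 h, and Col18a1 at 6 h (-0.36, adjusted p = 0.031). On line means Itgb1bp1, Itgb3bp, Itgb3 and Lama1 were then called. Without WT line 18, Col3a1 and Lama1 were called on line means, and without WT line 26 Itgam was (1.06, adjusted p = 0.013). The sum of fibroblast markers, also higher in the null libraries, is given above, and its part in these differences was not tested.

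**Figure D4:**
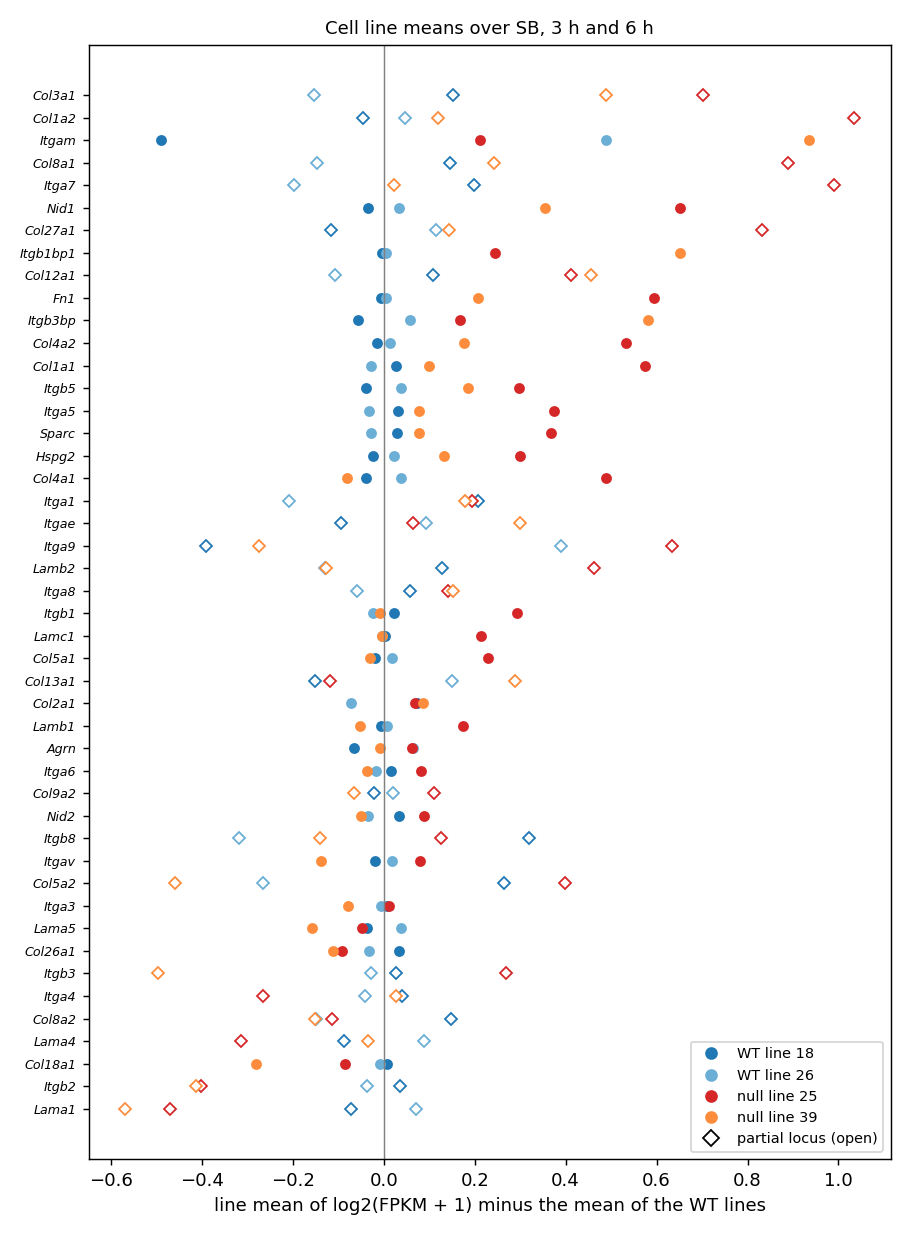
Mean log2(FPKM + 1) of each line over SB, 3 h and 6 h, minus the mean of the WT lines, for 46 of the 47 members in order of the genotype difference, with open symbols for partial loci. Both null lines lie to the right of both WT lines for 16 members, and null line 25 (red) is often farther from WT than null line 39.

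Genes that act on or beside the matrix were taken from 4 lists, with further genes named after their values were seen. Over all tested genes, 12.6% rose and 9.83% fell in WT at 3 h, and 9.59% and 6.31% at 6 h. In null cells it was 6.5% and 7.14% at 3 h, and 7.87% and 5.53% at 6 h. No list was tested as a set. Of 16 tested enzymes and chaperones of collagen processing, 1 rose and 1 fell in WT at 3 h, 2 rose at 6 h, 1 fell in null cells at 3 h and 1 rose at 6 h. P4ha1, a prolyl hydroxylase subunit, fell by 0.25 in WT and by 0.37 in null cells at 3 h (limma adjusted p = 0.033 and 0.011). P4hb, its partner subunit, rose by 0.38 in WT and 0.31 in null cells at 6 h (adjusted p = 0.021 and 0.046), and Plod2, a lysyl hydroxylase, rose by 0.43 from 3 h to 6 h in null cells (adjusted p = 0.035). Lox, which cross-links collagen, rose by 1.46 in WT at 3 h at a partial locus (adjusted p = 0.0093).

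Of 26 tested focal adhesion genes, which tie integrins to actin, 5 rose and 3 fell in WT at each time, and 4 rose and 1 fell at 3 h and 5 rose and 2 fell at 6 h in null cells. The largest rises were at partial loci, of the tensin Tns1 (1.501 in WT at 3 h, limma adjusted p = 0.021) and of the adaptor Nedd9 (1.00, adjusted p = 0.00053, and 0.80 in null cells, adjusted p = 0.0029). Fermt1, a kindlin, which helps activate integrins, rose by 0.70 and 0.76 in WT (3 h and 6 h) and by 0.46 and 0.61 in null cells (limma adjusted p = 0.0028, 0.0019, 0.022 and 0.0065). Tln1, talin, which binds integrin β tails, rose by 0.61 and 0.68 in WT (adjusted p = 0.012 and 0.0097) and by 0.52 in null cells at 6 h (adjusted p = 0.029). Rsu1, of the same adhesion complexes, fell by 0.55 in WT at 6 h (adjusted p = 0.0026). Fermt3 at a partial locus was lower in null than in WT cells in SB (-0.90, adjusted p = 0.0054) and at 3 h (-0.70, adjusted p = 0.016).

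Of 22 tested proteases and inhibitors, 5 rose and 1 fell in WT at 3 h, 4 rose at 6 h, 4 rose and 1 fell in null cells at 3 h and 4 rose at 6 h. Plat, tissue plasminogen activator, fell by 0.89 in WT and by 0.85 in null cells at 3 h (adjusted p = 0.0085 and 0.014). Mmp9, a gelatinase, rose in all 4 comparisons with SB, by 0.51 to 1.06, as did Mmp14 (0.60 to 0.73) and the urokinase receptor Plaur (0.58 to 0.81).

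Of 26 tested other receptors and proteoglycans, 3 rose and 2 fell in WT at 3 h, 5 rose and 3 fell at 6 h, and the counts in null cells were the same. Sdc4, a syndecan of focal adhesions, fell by 0.84 and by 1.20 in WT and by 0.70 and by 1.20 in null cells (limma adjusted p = 0.00049, 7.5e-05, 0.0021 and 0.0001). Tnc, tenascin C, rose by 1.25 in WT and 0.70 in null cells at 6 h (adjusted p = 0.004 and 0.045), and Frem2 of the epidermal basement membrane fell by 0.97 and by 0.70 (adjusted p = 0.0085 and 0.031), both at partial loci. Sdc3 rose by 0.48 to 0.75 in all 4 comparisons, and Sdc2 rose at 6 h by 0.51 in WT and 0.58 in null cells (adjusted p = 0.0013 and 0.00072). Cd9, a tetraspanin partner of integrins, was higher by 0.67 in null than in WT cells in SB (adjusted p = 0.038). The median of each of the 4 lists lay between -0.15 and 0.12 in the comparisons with SB.

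Over the 12 libraries, the genes with the highest Pearson r to Col8a2, the member of largest called change, were Papolb (0.950), Mab21l3 (0.944), Socs1 (0.943), Dnah14 (0.942) and Tcf15 (0.939). For Lama5, added after the values were seen because its locus is whole, they were Unc5b (0.993), Wnt3 (0.989), Chst15 (0.988), Pik3ip1 (0.987) and Mrc2 (0.986). Among members, r with Lama5 was 0.980 for Agrn, 0.908 for Itga5, 0.891 for Lamb1 and -0.892 for Itga6. The 12 values share 4 lines and 3 treatments, so these r describe a common pattern over treatments and carry no test.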

How the data were processed

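RNA of 12 libraries was read as single ends after poly(A) selection, and the authors deposited FPKM per gene locus, a unit named in the column headers of their table. Their processing notes name mm10. No source used here gives the aligner, the quantifier or the use of strand, so overlapping and antisense genes are uncertain. The table held 17446 loci. Those without a name (2666, with 3.41 to 3.86% of each library's FPKM) and 27 named loci with a status other than OK were left out, and 1 locus was kept per name. Genes at 1 FPKM or more in at least 2 libraries were tested.

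With limma 3.58.1 (R 4.3.3), each of 6 groups had its own mean of log2(FPKM + 1), with a variance trend and two-sided tests. Fold changes on this scale understate changes of low genes. The model was tested on simulated data. Alternatives were a pseudocount of 0.1, no filter, quantile normalization, the cell line as a replicate block, and leaving out each line. The pairing is that of dishes of 1 line, whose deviations from the group means correlated by 0.017 to 0.054 in WT and 0.246 to 0.349 in null pairs.

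Members and lists were chosen with earlier results of these data known. Values per library are given for the 12 called members of largest change and the 3 of highest level in each family. Lamb1, Hspg2 and Nid1 were added after their values were seen. Of the counted genes, 1 member and 1 listed gene are not reported here by name.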

Additional observations from a re-analysis of the deposited data

How the results depend on the processing

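Of the 34 calls of a member in a comparison none reversed under any alternative: 34 were kept with quantile normalization, 33 with no filter, 33 with the block, 31 with a pseudocount of 0.1, 11 and 10 without WT line 18 or 26, and 25 and 26 without null line 25 or 39. Numbers of members called follow. With the replicate block, which pairs the dishes of a line, they were 16, 16 and 4 in WT (3 h, 6 h, and 6 h against 3 h; 9, 7 and 2 without it), 15, 16 and 5 in null cells (8, 6 and 1 without it) and 0 for null against WT at 3 h (1 without it), and the block changed no other count by over 1.5 times. With a pseudocount of 0.1 they were 1 for 6 h against 3 h in WT and 0 for null against WT at 3 h. With partial loci left out, an alternative added after seeing the data, they were 4 and 1 in WT (6 h, and 6 h against 3 h) and 0 for null against WT at 3 h.

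Leaving out each line gave 3 to 16 members in WT at 3 h, 0 to 15 at 6 h and 0 to 2 for 6 h against 3 h. In null cells it gave 3 to 7, 4 to 9 and 0 to 0. For null against WT it gave 0 to 2 in SB, 0 to 1 at 3 h, 0 to 3 at 6 h and 0 to 4 on line means. The 1 at 3 h, Itgb1bp1 without null line 25, is not the member called with all lines. Where a group kept 1 line, that line is assumed to vary like the other groups. No share of all genes called stands beside these counts, so they are not a result about the members. The response differences stayed at 0 throughout. Quantile normalization changed the split of all genes called, from 1622 up and 1260 down to 1372 and 1699 in WT at 3 h, from 1230 and 809 to 1160 and 1328 in WT at 6 h, from 834 and 915 to 964 and 1103 in null cells at 3 h, and from 1009 and 709 to 961 and 1008 at 6 h. Members called were then 10 up and 1 down, 7 and 1, 8 and 1, and 6 and 1. The causes were not tested. Read totals are unknown, 2 lines stand for each genotype, and low or partial loci are the least precise.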

Other observations

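Itga11, the α chain of a collagen receptor, fell just below the level for membership and was listed at 0 in all 6 WT libraries. It stood at 0.869, 0.843 and 1.48 FPKM (SB, 3 h, 6 h) in null line 25 and 2.04, 4.28 and 1.87 in null line 39. Its locus, chr9:62713854-62714180 (mm10), spans 327 bases and holds 0 annotated exonic bases of the gene, so these values describe no exon of Itga11. Col6a3, a chain of microfibrillar collagen, also below the level, stood at 0.477 to 2.18 FPKM in the WT libraries and 0.333 to 0.993 in the null libraries. Its locus is partial and holds 0.051 of the exonic bases, so these values describe a short stretch of the gene.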
